A study of Macaca mulatta with 6 samples.

Results

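The RTL1-side miRNAs are the miRNAs that lie between DLK1 and the large miR-379 to miR-656 cluster in the imprinted DLK1-DIO3 region. Their entries in the plasma small RNA table were found by name, with any species prefix and both arms taken for 10 precursors: miR-770, miR-493, miR-337, miR-665, miR-431, miR-433, miR-127, miR-432, miR-136 and miR-370. The rule used no measured value. It found 24 of 2046 entries, 17 with a rhesus name (mml-) and 7 with the name of another species, and an entry is 1 mature sequence with its level in each library. The plasma came from 3 adult male rhesus monkeys (Macaca mulatta), sampled before ischemia and again some hours after the right middle cerebral artery had been closed by a clot flushed in through a catheter (MCAO). There was 1 library per monkey and time, so each group had 3 libraries, and the samples before ischemia were the control of the same animals. The methods state that anesthesia was used for the surgery and that the monkeys kept for study still had a closed artery at angiography. A group of animals with surgery and no clot is not part of the comparison, so the clot, the surgery, the anesthesia and the time between samples cannot be told apart.

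The DLK1-DIO3 region is imprinted, which means that a gene is read from the chromosome of 1 parent only. The protein genes DLK1, RTL1 and DIO3 are read from the paternal copy, and the miRNAs and the long RNA MEG3 from the maternal copy. Several of these miRNAs are made from the strand opposite to RTL1, a gene derived from a retrotransposon and needed in placenta and muscle, and in mouse miR-127 and miR-136 match its RNA perfectly and guide its cleavage. Each precursor is a hairpin that gives a 5p and a 3p arm. As a rule 1 arm is loaded into the silencing complex and the other is degraded, so the levels of the arms differ. In the RefSeq annotation of the rhesus assembly T2T-MMU8v2.0 the genes of all 10 precursors were found by name on chromosome 7, in the order miR-770, miR-493, miR-337 and miR-665, then miR-431, miR-433, miR-127, miR-432 and miR-136, and last miR-370. The middle 5 lie inside the RTL1 gene, and miR-379, the first gene of the large cluster, follows miR-370. The build used for the deposited table is not given in the sources used here, so only names and order were taken from the annotation.

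The sequences that the results turn on are both arms of miR-127, whose levels parted, and miR-370-3p, which was lower after ischemia. The capitals mark the seed, bases 2 to 8 from the 5′ end, by which a miRNA finds its targets, and T stands for U as in the deposited table.
mml-miR-127-5p_L-1: gAAGCTCAgagggctctgatt
mml-miR-127-3p: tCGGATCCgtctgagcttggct
mml-miR-370-3p: gCCTGCTGgggtggaacctggt
In the names, L stands for bases added or missing at the start, R for the same at the end and ss for a substitution, each relative to the reference miRNA, so the 5p entry of miR-127 starts 1 base inside its reference and its seed is moved by 1 base.

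The next set belongs to miR-136, miR-431, miR-432-5p and miR-433, where the levels were lower after ischemia in at least 1 arm without overlap of the groups but did not pass the test.
mml-miR-431_R-1: tGTCTTGCaggccgtcatgc
mml-miR-433-5p_R-1: tACGGTGAgcctgtcattatt
mml-miR-433-3p: aTCATGATgggctcctcggtgt
mml-miR-432-5p_1ss23GT: tCTTGGAGtaggtcattgggtgt
mml-miR-136_R-1: aCTCCATTtgttttgatgatgg
hsa-miR-136-3p: cATCATCGtctcaaatgagtct
The 24 entries hold 20 different seeds. No seed is shared between precursors, nor with any other entry of the table, so the members form a group by position and not by a common target rule.

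Only miR-665-3p came in several forms with 1 seed. They share the 5′ end and differ at the 3′ end, and are shown because they are forms of 1 arm.
mml-miR-665_R-2: aCCAGGAGgctgaggccc
pal-miR-665-3p_R-3: aCCAGGAGgctgaggccct
pal-miR-665-3p_R-2: aCCAGGAGgctgaggccctt
pal-miR-665-3p_R-1_1ss21CT: aCCAGGAGgctgaggcccttt

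Levels are given as normalized counts, for which the authors had scaled each library by a factor of its own. The factor was read from the steps between the low values. It gave total counts over all entries of 6036831 to 9737589 after ischemia and 10745499 to 15548693 before. The libraries before ischemia thus held more counts assigned to entries, and the number of reads sequenced was not taken from these values. An entry listed at 0 allows up to 3 counts, which is 1.70 to 5.58 normalized counts in a library. Replicate 1 after ischemia stood apart on the first principal component of all entries, at 69.1 against −35.7 to 4.62 for the other 5 libraries. The summed share of a fixed list of red blood cell miRNAs (miR-486, miR-451 and others, 6 of 6 detected) was 8.32% to 22.7% before and 14.3% to 34.8% after ischemia, and was higher after ischemia in each monkey. The list of platelet miRNAs (10 of 10 detected) held 18.1% to 28.1% before and 13.4% to 24.4% after. The brain list (6 of 8 names found) held 0.00382% to 0.0127% before and 0.00235% to 0.00368% after. The names not found were miR-124 and miR-128, matched exactly, so forms with a closing letter do not count as these names. The paper lists such a form, miR-128a, among its downregulated miRNAs, so the list does not show that miR-128 was absent. In plasma, fewer cells that release a miRNA and less of it released per cell cannot be told apart.

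Together the RTL1-side miRNAs took 2.51%, 1.36% and 1.40% of all normalized counts before ischemia in monkeys 1, 2 and 3, and 0.806%, 1.46% and 1.10% after ischemia. The share lay lower in monkeys 1 and 3 and higher in monkey 2, and the groups overlap. The means were 1.76 ± 0.654% before and 1.12 ± 0.325% after (SD, n = 3 each, exact two-sided permutation test, p = 0.3, where 0.1 is the smallest p that 3 libraries against 3 allow). Without replicate 1 before ischemia the difference of this share was −0.262 percentage points in place of −0.639. Each share is divided by the total of normalized counts in its library. This total was 8371410 to 10271400 before and 11226700 to 13425600 after ischemia, and was higher after ischemia in each monkey. Summed as normalized counts, the members were lower after ischemia in monkey 1 only, from 210475 to 108170. Monkey 2 went from 140173 to 164057 and monkey 3 from 123038 to 123561 (exact two-sided permutation test of the sums, p = 0.6). Of this sum, mml-miR-127-3p alone made up 40.8% to 54.6% before and 53.7% to 62.4% after. Without it the other entries took 0.723% to 1.14% before and 0.314% to 0.547% after, with no overlap of the groups (exact permutation p = 0.1, lower in 3 of 3 monkeys). The share of the red blood cell list differed most in monkey 1, from 9.84% to 34.8%, where the platelet list went from 23.7% to 13.4%; their part in the shares was not tested.

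**Figure D1:**
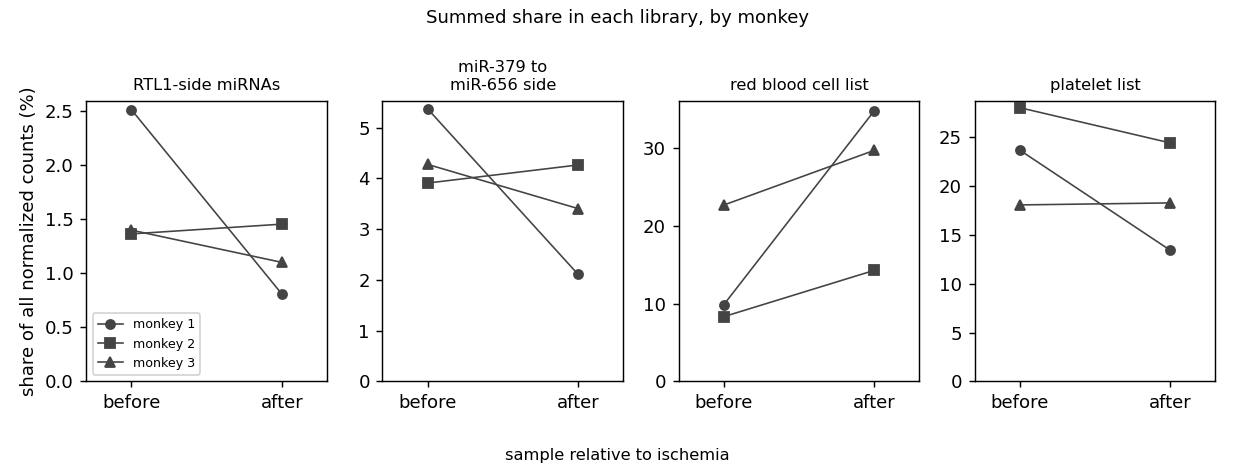
Summed share of all normalized counts, in percent on separate linear axes from 0, before and after ischemia, for the RTL1-side miRNAs, the miR-379 to miR-656 side, and the red blood cell and platelet lists. Each line joins the libraries of 1 monkey, and the share of the RTL1-side miRNAs goes from 2.51% to 0.806% in monkey 1 but from 1.36% to 1.46% in monkey 2.

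Before ischemia the order of the means ran from mml-miR-127-3p at 77007 normalized counts over mml-miR-493-5p at 21020, mml-miR-432-5p_1ss23GT at 17360, mml-miR-370-3p at 14199, mml-miR-433-3p at 8537, hsa-miR-136-3p at 7170, mml-miR-493-3p at 5193 and mml-miR-431_R-1 at 3922 down to mml-miR-127-5p_L-1 at 1207. Of these 9, miR-127-3p and miR-127-5p were clear of their neighbours in this order, and each entry from miR-493-5p to miR-493-3p overlapped with the next in the libraries before ischemia. The remaining tested entries had means of 759 or less. After ischemia miR-370-3p went from place 4 to place 7 and miR-127-5p from place 9 to place 13 of 19. A level counts reads of whole molecules, so no correction for length applies, but small RNA kits take up sequences unequally, and the order is one of reads.

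**Figure D2:**
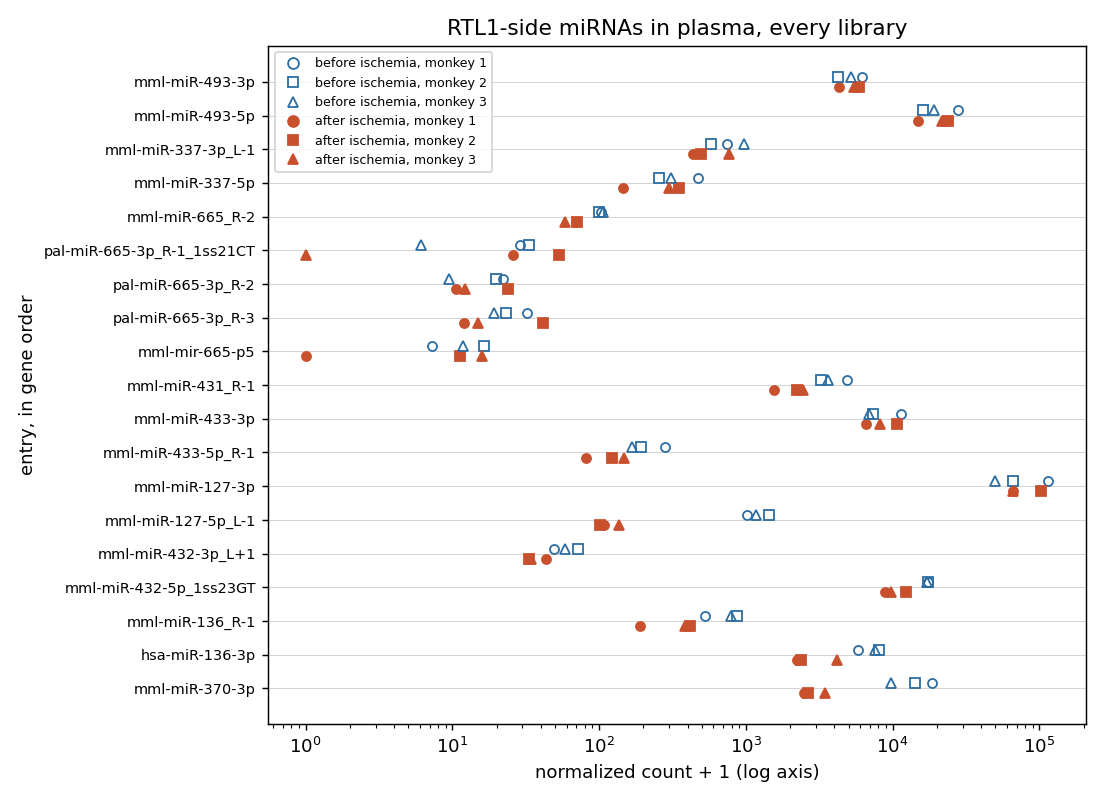
Normalized count + 1 on a log axis for the 19 tested member entries in gene order, with open symbols before and filled symbols after ischemia and 1 symbol shape per monkey. The groups of mml-miR-127-5p_L-1 (1010 to 1443 before and 100.01 to 136 after) and mml-miR-370-3p (9779 to 18616 and 2502 to 3452) are clear of each other, while those of mml-miR-127-3p overlap.

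For the comparison after against before ischemia, log2(normalized count + 1) was fitted with limma over all entries with 10 normalized counts in at least 3 libraries. These were 807 of the 2046 entries and 19 of the 24 members, with Benjamini-Hochberg adjustment over all 807 and a threshold of 0.05. Fold changes on this scale understate the change of rare entries. Of the members 2 were lower and none higher, where 3.47% of all tested entries were lower and 1.98% higher. At an unadjusted p under 0.05 in limma, 6 members were lower and 0 higher, against 12.5% and 9.79% of all tested entries. In 9 of the 19 members each library after ischemia lay below each library before (47.4%, against 15.4% of all tested entries), and in none above (11.5% of all tested entries). The log2 change was below 0 in 17 of 19, against 52.5% of all tested entries, with a median of −0.68 against −0.06 over all. When libraries were scaled to equal totals, the median over all entries moved by −0.27, all 19 members were below 0, and 4 members passed in place of 2, with 65 of 80 calls in the table lower in place of 28 of 44. With an unequal-variance test per entry on the normalized counts, unadjusted at P under 0.05, 7 members were lower, against 7.06% of all tested entries. The paper, which used a t test, lists the same 7 entries as downregulated. The members share a region and are not independent of each other.

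**Figure D3:**
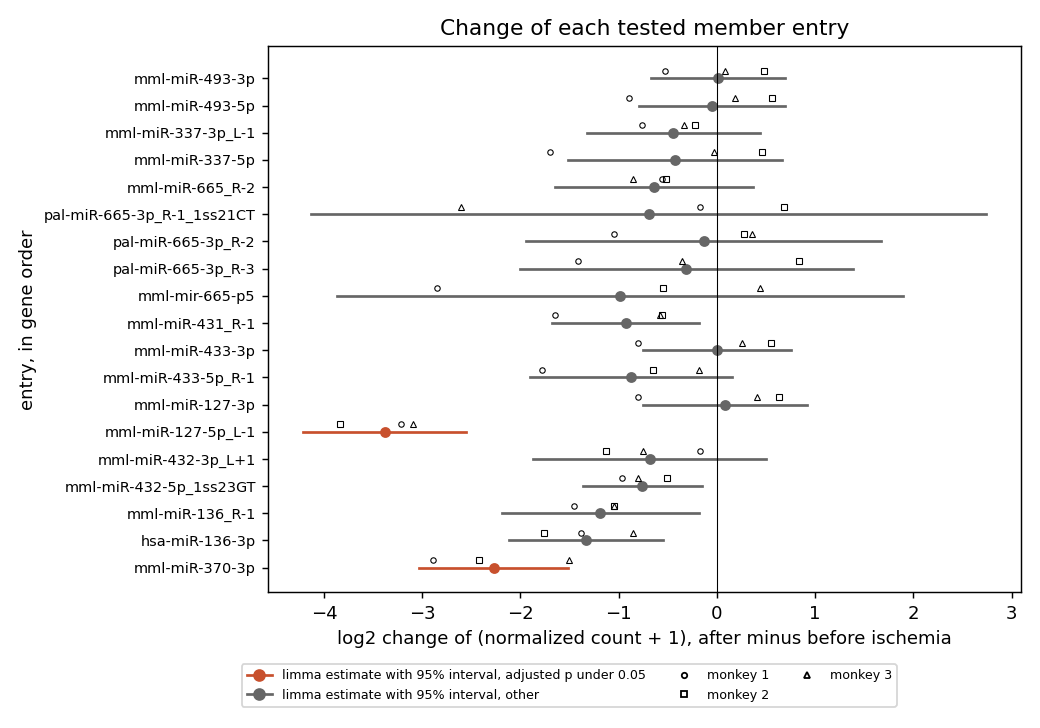
Log2 change after minus before ischemia of the 19 tested member entries in gene order, as the limma estimate with its 95% interval (colored where the adjusted p is under 0.05) and as the difference within each monkey (small symbols). Only mml-miR-127-5p_L-1 at −3.38 and mml-miR-370-3p at −2.27 passed, and all other estimates lie between −1.33 and 0.08.

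miR-127 stood out by its arms. mml-miR-127-5p_L-1, the rare arm, was at 1010, 1443 and 1167 normalized counts before ischemia and at 108, 100.01 and 136 after. The highest library after ischemia lay far below the lowest before. The values after ischemia rest on 73 to 78 counts, against 1297 to 2146 before. The log2 fold change was −3.38 (standard error, SE, 0.365, limma adjusted p = 0.00197), that is, 10.4-fold lower, and the differences within the monkeys were −3.22, −3.84 and −3.09. The call held without each library in turn (adjusted p up to 0.0142). It was lost when the unequal-variance test on the normalized counts was adjusted over all entries (adjusted p = 0.306, range over all alternatives 0.000426 to 0.306).

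mml-miR-127-3p, the abundant arm and the one best known for its match to the RTL1 RNA, was at 114979, 65889 and 50153 normalized counts before and at 66059, 102375 and 66347 after ischemia. It was lower in monkey 1 and higher in monkeys 2 and 3, and the groups overlap. The log2 fold change was 0.08 (95% interval −0.76 to 0.92, adjusted p = 0.938 from limma), and −0.31 when libraries were scaled to equal totals. Whether the arms moved apart was tested on the log2 ratio of the 5p to the 3p arm within each library, which does not depend on how libraries are scaled. With the pseudocount of 1 added to both, there were 114, 45.6 and 43.0 reads of the 3p arm for each read of the 5p arm before ischemia, and after ischemia 609, 1014 and 485. The mean log2 ratio went from −5.92 ± 0.787 to −9.39 ± 0.544 (SD, n = 3 each), a difference of −3.46 (SE 0.568, 95% interval −4.82 to −2.11, limma adjusted p = 0.0223 over 160 precursors with both arms).

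This was the only one of 6 member precursors whose arm ratio passed, where 21.2% of the 160 precursors passed, 13 (8.12%) with a lower and 21 with a higher ratio. Its drop was the second largest of the 160. The difference kept its size without each library (−3.92 to −3.16), but no longer passed without replicate 2 or replicate 3 before ischemia (adjusted p = 0.0662 and 0.0676), where only 3 and 2 ratios passed in the whole table. The range of the adjusted p over all alternatives was 0.00269 to 0.0767.

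miR-433, which targets a fibroblast growth factor in human cells, showed arms of the same bias. mml-miR-433-3p, the abundant arm, was at 11385, 7350 and 6878 normalized counts before and at 6527, 10732 and 8203 after ischemia, with overlapping groups and a log2 fold change of −0.00077 (95% interval −0.76 to 0.75, adjusted p = 0.999 from limma). mml-miR-433-5p_R-1 was at 278, 192 and 167 before and at 80.0, 122 and 147 after. All libraries after ischemia lay below those before in the 5p arm, yet it did not pass (log2 fold change −0.87, SE 0.451, limma adjusted p = 0.302). There were 38.2 to 41.0 reads of the 3p arm per read of the 5p arm before and 55.5 to 87.4 after. The groups of ratios do not overlap, but their difference of −0.87 (95% interval −1.75 to 0.01) did not pass either (adjusted p = 0.134 from limma).

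**Figure D4:**
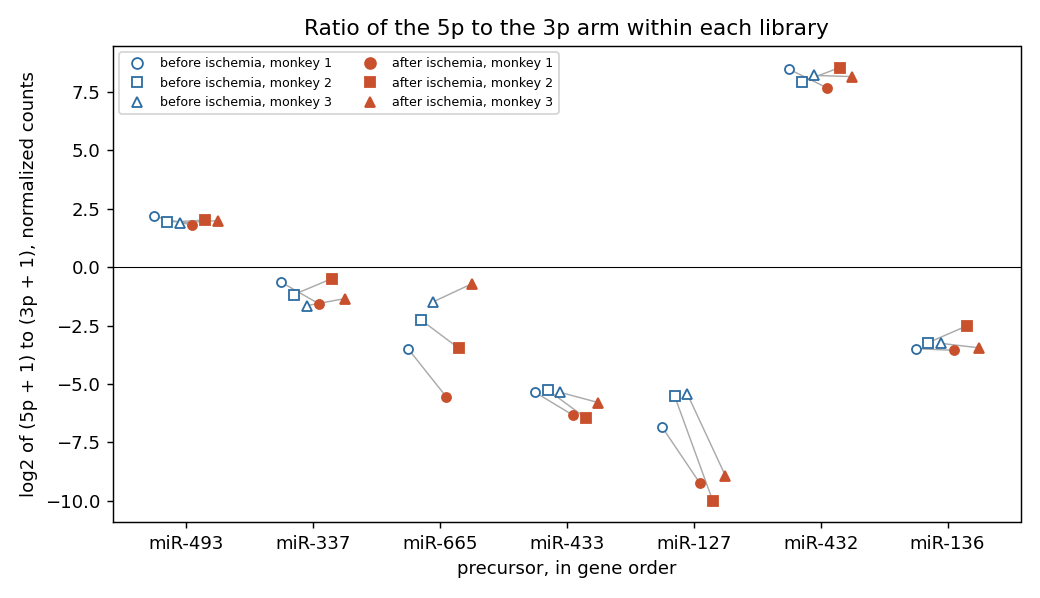
Log2 ratio of the 5p to the 3p arm (normalized count + 1) within each library for 7 member precursors in gene order, with lines joining the libraries of 1 monkey and values above 0 where the 5p arm is the more abundant. miR-127 moves from a mean of −5.92 to −9.39, and miR-433 from −5.32 to −6.19, while the groups of the other 5 overlap. Arms are taken from the names, so miR-665 is drawn without mml-miR-665_R-2, whose name gives no arm. For miR-136, mml-miR-136_R-1 was taken as the 5p arm by sequence, after the values were seen.

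mml-miR-370-3p, the last member in gene order and outside RTL1, is known in human liver cells to repress a carnitine palmitoyltransferase of fatty acid oxidation. It was at 18616, 14201 and 9779 normalized counts before and at 2502, 2654 and 3452 after ischemia. The highest library after ischemia lay below the lowest before, and the 3 libraries after ischemia lay closer together. The log2 fold change was −2.27 (SE 0.333, limma adjusted p = 0.00727), 4.83-fold lower, and −2.89, −2.42 and −1.50 within the monkeys. The order of these differences follows that of the levels before ischemia, which are part of each difference, so it is no separate result. The call held without each library in turn (adjusted p up to 0.0344) and was lost with the adjusted unequal-variance test (adjusted p = 0.452, range over all alternatives 0.00179 to 0.452). No 5p entry of miR-370 was among the members, so its arm ratio was not tested.

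miR-136 is the last precursor inside RTL1, and both of its arms were lower after ischemia to a like extent without passing. hsa-miR-136-3p, the abundant arm, was at 5840, 8064 and 7605 normalized counts before and at 2235, 2381 and 4203 after, with a log2 fold change of −1.33 (SE 0.345, limma adjusted p = 0.0708). mml-miR-136_R-1 was at 521, 862 and 793 before and at 189, 415 and 383 after, with a log2 fold change of −1.19 (SE 0.438, limma adjusted p = 0.159). In both arms the groups do not overlap and each monkey was lower. hsa-miR-136-3p passed when libraries were scaled to equal totals (adjusted p = 0.0206, range over all alternatives 0.0105 to 0.306, the unadjusted test included). The name of mml-miR-136_R-1 gives no arm. Taken as the 5p arm, an assignment by sequence made after the values were seen, there were 9.35 to 11.2 reads of the 3p arm per read of the 5p arm before and 5.72 to 11.8 after. This is a difference in log2 ratio of 0.15 (95% interval −0.79 to 1.08, adjusted p = 0.816 from limma over 184 precursors, of which 17.9% passed with arms so assigned), against −3.46 for miR-127.

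miR-432 and miR-431 complete the members inside RTL1. mml-miR-432-5p_1ss23GT, the third most abundant entry, was very even before ischemia at 17499, 17473 and 17108 normalized counts, and was at 8930, 12280 and 9801 after. Each monkey was lower by 0.51 to 0.97 on the log2 scale and the groups do not overlap. With a log2 fold change of −0.76 (SE 0.266, limma adjusted p = 0.147) it did not pass an adjusted test, other than with libraries scaled to equal totals (adjusted p = 0.0458, range over all alternatives 0.0185 to 0.376, where the lowest is the unadjusted test). mml-miR-432-3p_L+1 was at 48.3 to 71.3 before and at 32.1 to 42.7 after, with a log2 fold change of −0.68 (adjusted p = 0.466 from limma). The log2 arm ratio differed by −0.08 between the groups (95% interval −1.03 to 0.88), and miR-432 was the precursor most biased to the 5p arm. mml-miR-431_R-1, which in mouse neurons promotes the regrowth of axons, was at 4864, 3267 and 3635 before and at 1550, 2217 and 2431 after. Again there was no overlap, and the log2 fold change of −0.93 (SE 0.327, limma adjusted p = 0.147) did not pass. The unequal-variance test gave P = 0.0412 unadjusted and 0.443 adjusted, and the paper lists this entry as downregulated.

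Among the members between MEG3 and RTL1, no entry passed. mml-miR-493-5p was the second most abundant entry, at 27847, 16105 and 19109 normalized counts before and at 14957, 23789 and 21781 after ischemia. Like miR-127-3p and miR-433-3p, it was lower after ischemia in monkey 1 and higher in monkeys 2 and 3, and so was mml-miR-493-3p (6182, 4232 and 5166 before, 4299, 5906 and 5475 after). Their log2 fold changes were −0.05 (95% interval −0.79 to 0.69) and 0.01 (−0.67 to 0.70) (adjusted p = 0.957 and 0.985 from limma). The mean log2 arm ratio of miR-493 was 2.00 ± 0.154 before and 1.93 ± 0.117 after (SD, n = 3 each, difference −0.06, 95% interval −0.75 to 0.63).

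Both arms of miR-337 had log2 changes below 0 with intervals that include 0. mml-miR-337-3p_L-1 was at 738, 576 and 963 normalized counts before and at 433, 494 and 762 after, lower in each monkey but with overlapping groups (log2 fold change −0.44, 95% interval −1.33 to 0.44). mml-miR-337-5p was at 472, 256 and 306 before and at 145, 351 and 299 after (−0.42, −1.51 to 0.66). Neither passed (adjusted p = 0.532 and 0.657 from limma), and the arm ratio differed by 0.02 (95% interval −1.03 to 1.06). The log2 fold change of mml-miR-337-3p_L-1 was −0.26 without replicate 3 before and −0.68 without replicate 3 after ischemia, and that of mml-miR-337-5p was −0.039 without replicate 1 after and −0.68 without replicate 2 after ischemia.

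Of miR-665, the shortest form was the most abundant. mml-miR-665_R-2 was at 102, 99.5 and 105 normalized counts before and at 68.9, 69.2 and 57.7 after ischemia, and was lower in each monkey without overlap. It did not pass (log2 fold change −0.64, SE 0.441, limma adjusted p = 0.424) and rests on 31 to 54 counts after ischemia. With the unequal-variance test P was 0.00438 unadjusted and 0.208 adjusted. The 3 longer forms of the same arm that were tested lay at 52.6 or less in every library, with log2 fold changes of −0.70 to −0.14 and intervals that reached from −4.14 to 2.74. Summed with the rare pal-miR-665-3p_R-3_1ss18CA, these longer forms were at a log2 change of −0.15 in the limma fit (adjusted p = 0.941), which did not pass. mml-miR-665_R-2, whose name gives no arm, is not in this sum. mml-mir-665-p5, the other arm, was at 6.23 to 15.5 before and at 0 to 14.9 after (log2 fold change −0.99, 95% interval −3.87 to 1.89). The intervals leave the size of a change of the longer forms and of the other arm undetermined.

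The other 5 members were too rare to be tested. miR-770, which lies in an intron of MEG3, was the least detected precursor. mml-miR-770-5p_R+1 was seen with 5 counts in 1 library before ischemia, and mml-mir-770-p3 with 8 counts in replicate 3 before and 6 counts in replicate 3 after. bta-miR-432_L+2, dno-miR-433-3p_L+2 and pal-miR-665-3p_R-3_1ss18CA, minor forms of members already described, reached at most 7.69 normalized counts.

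By position, 7 of 9 tested entries inside RTL1 had groups that do not overlap, all lower, with a median log2 change of −0.87, and 2 of 10 outside RTL1, with a median of −0.43 (15.4% and −0.06 over all tested entries). The 2 exceptions inside RTL1 were the abundant 3p arms of miR-127 and miR-433. The tested entries outside RTL1 include both arms and several forms of the rare miR-665. All of these but mml-miR-665_R-2 had overlapping groups and lay at 52.6 normalized counts or less in each library. By the adjusted limma test, 1 of 9 tested entries inside RTL1 and 1 of 10 outside were lower (11.1% and 10%, against 3.47% of all tested entries). The log2 change was below 0 in 8 of 9 inside and 9 of 10 outside, against 52.5% of all tested entries. The difference between the positions inside and outside RTL1 was not tested. On the other side of miR-370, the miR-379 to miR-656 cluster had 80 entries, of which 68 were tested. Of them 8 were lower (11.8%, against 10.5% of the RTL1-side entries and 3.47% of all tested entries) and 0 higher. At an unadjusted p under 0.05 in limma 21 were lower and 3 higher, against 12.5% and 9.79% of all tested entries. In 26 of the 68 each library after ischemia lay below each library before (38.2%, against 47.4% of the RTL1-side entries), and in 3 above. Over all tested entries these were 15.4% and 11.5%. The median log2 change of the cluster was −0.40. Its entries with the smallest p were mml-miR-381-3p (log2 change −3.57), mml-miR-410-3p (−2.55), mml-miR-299-3p (−2.34) and mml-miR-1185-3p_L+2R+1 (−2.21), at adjusted p from 0.000985 to 0.0121 in limma. The log2 ratio of the summed RTL1-side miRNAs to the summed miR-379 to miR-656 miRNAs was −1.09, −1.52 and −1.61 before and −1.39, −1.55 and −1.63 after ischemia in monkeys 1, 2 and 3, and was lower after ischemia in 3 of 3 (exact two-sided sign-flip test over pairs, p = 0.25, the smallest that 3 pairs allow). The group means, −1.41 ± 0.275 before and −1.52 ± 0.124 after (SD, 3 libraries each), differed by less than the spread between the libraries before ischemia (exact two-sided permutation test, p = 0.6). Without replicate 1 before ischemia the difference was 0.042 in place of −0.11. The size of the difference also depended on the entries taken. Without mml-miR-127-3p it was −0.47, and with the median of log2 values over the tested entries of each side in place of the sums it was −0.88 (exact two-sided permutation p = 0.1 in both, the smallest that 3 libraries against 3 allow).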

How the data were processed

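Small RNA of plasma was sequenced for 6 libraries, 3 per group. The authors trimmed adapters, kept short reads, removed other ncRNA with Rfam and assigned miRNAs with ACGT101-miR. Versions and the genome build are not given in the sources used here. The signal values that the authors deposited are counts, some of them fractions of reads, scaled by 1 factor per library. Divided by the step recovered per library, 84.0% to 86.9% of the values above 0 were whole within 0.01 counts. Since these are not raw counts for nearly all entries, no count model was used. Of the table, 5 empty lines are not reported here.

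Entries with 10 normalized counts in 3 libraries were tested with limma 3.58.1 in R 4.3.3 (pseudocount 1, variance trend, no covariate, Benjamini-Hochberg adjustment), as were arm ratios over all precursors with both arms named. The fit was tested on simulated data. Sums were compared by exact permutation tests in Python 3.11.15 with NumPy 2.4.6 and pandas 2.3.3. Figures were drawn with Matplotlib 3.10.9. Every member was taken by name, with full statistics for entries past the threshold and the most abundant entry of each arm. The members and lists were chosen with earlier results of these data known. Same-numbered samples were taken as pairs, since the methods describe samples of the same 3 monkeys at both times. The pairs entered only the differences within monkeys, the replicate block and the sign-flip tests. The main limma fits and the exact permutation tests compared the groups without pairs. Deviations of same-numbered samples from the group means correlated at 0.18, 0.36 and 0.29, against −0.40 to 0.14 otherwise. Alternatives were other scalings, filters, pseudocounts, tests, summed entries, a replicate block and left-out libraries. Intervals are 95% intervals of the limma fit for the difference between the group means. They rest on the spread between libraries and do not bound the values of single libraries or monkeys.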

Additional observations from a re-analysis of the deposited data

How the results depend on the processing

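The number of member entries lower after ischemia was 2 and that of higher ones 0 in every setting without each library in turn, with other filters, pseudocounts and variance models, with median-of-ratios scaling and with entries of an arm summed. It was 4 with libraries scaled to equal totals, 0 with the adjusted unequal-variance test, where mml-miR-127-5p_L-1 (−3.39) and mml-miR-370-3p (−2.31) kept their size, and 7 with that test unadjusted, where 7.06% of all tested entries were lower. With replicate number as a block it was 2 again, and the block changed no other call (arm ratio of miR-127 −3.46, adjusted p = 0.0281 from limma; exact sign-flip test of the summed share over pairs, −0.639 percentage points, p = 0.5, and of the ratio to the other side, −0.11, p = 0.25, the smallest that 3 pairs allow). Member arm ratios that passed ranged from 0 to 1 without single libraries, also with arms assigned by sequence, which was chosen after seeing the data and in which miR-127 passed with all libraries (adjusted p = 0.0241 from limma) and not without replicate 2 or 3 before or replicate 1 after ischemia (adjusted p = 0.0742, 0.0767 and 0.0531).

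Directions turned only for values near 0 or rare entries that never passed. Without single libraries, log2 changes ranged from −0.13 to 0.15 for mml-miR-493-3p, −0.22 to 0.17 for mml-miR-493-5p, −0.18 to 0.23 for mml-miR-433-3p, −0.19 to 0.41 for mml-miR-127-3p, −1.83 to 1.04 for pal-miR-665-3p_R-1_1ss21CT and −1.74 to 0.26 for mml-mir-665-p5. Arm ratios ranged from −0.12 to 0.026 for miR-493, −0.31 to 0.27 for miR-337, −2.10 to 0.31 for miR-665, −0.28 to 0.15 for miR-432 and −0.18 to 0.34 for miR-136, and the ratio to the miR-379 to miR-656 side from −0.22 to 0.042. With libraries scaled to equal totals mml-miR-493-3p was at −0.38 and mml-miR-127-3p at −0.31, and by the ratio of means pal-miR-665-3p_R-1_1ss21CT was at 0.23. The cause of these changes was not tested. The summed share kept its direction in all 10 alternatives. Among these, the sign-flip test over pairs leaves the difference as it is and could not turn it. The median of log2 values over entries is not a share. The ratio to the miR-379 to miR-656 side was −0.47 without mml-miR-127-3p and −0.88 by the median over entries, against −0.11 by the sums. Entries under 100 normalized counts rest on few reads, above all after ischemia.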
